A study of Mus musculus with 4 samples.

Results

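A group of 10 imprinted genes with roles in growth was followed through single-cell RNA profiles of mouse pancreas: Dlk1, Meg3, H19, Igf2, Peg3, Mest, Ndn, Cdkn1c, Plagl1 and Grb10. They were taken by symbol, and each of the 10 symbols stood once among the 31053 genes of the count matrices. They were selected on measured values, namely the 6-week caerulein and saline levels of Dlk1 and Meg3, so the 6-week contrast is a description. Wild-type C57BL/6 mice received saline or caerulein, a peptide related to cholecystokinin that drives acinar secretion and at high dose brings on pancreatitis. The 4 libraries were caerulein with 2 days of recovery (C2D), saline with 2 days (S2D), caerulein with 6 weeks (C6W) and saline with 6 weeks (S6W), the saline mice being labelled naive to inflammation. Each group was a single 10x 3' library of DAPI-negative, that is viable, sorted cells of the whole pancreas, and age, sex and number of animals are not given in the labels. No difference below could therefore be tested against variation between animals, and every interval (exact, 95%) and every limit on a count of 0 (set at 3 counts) covers counting error only.

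An imprinted gene is transcribed mainly or solely from the copy inherited from a given parent, because methylation laid down in the germ line marks the copies by parent. Many imprinted genes act on growth before birth: those expressed from the paternal copy often promote it and those from the maternal copy often restrain it. Most are turned down in adult tissues, and several persist in fibroblasts, endocrine cells and stem cells. A UMI, which counts an original RNA molecule, does not show which parental copy it came from.

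The members lie in several imprinted domains of the mouse genome (build GRCm38, GENCODE vM21). Dlk1 (ENSMUSG00000040856, chr12:109452823-109463336, plus strand) encodes a membrane protein with EGF repeats, related to the Notch ligands, which holds back fat cell differentiation and is expressed from the paternal copy. Meg3 (ENSMUSG00000021268, chr12:109541001-109571726, plus strand) is the maternally expressed long noncoding RNA of the same domain, and its start lies 77.7 kb past the end of Dlk1. H19 (chr7:142575529-142578143, minus strand) is a maternally expressed noncoding RNA that holds Mir675, and 72.6 kb separate it from Igf2 (chr7:142650766-142666816, minus strand), the paternally expressed insulin-like growth factor. Cdkn1c (chr7:143458339-143461050, minus strand) encodes the cyclin-dependent kinase inhibitor p57. Peg3 (chr7:6703892-6730431, minus strand) and Plagl1 (chr10:13060504-13131694, plus strand) encode zinc finger proteins, and Ndn (chr7:62346569-62350262, plus strand) encodes necdin, a MAGE family protein. Mest (chr6:30723547-30748465, plus strand) encodes a hydrolase-like protein of the endoplasmic reticulum. Grb10 (chr11:11930508-12038683, minus strand) encodes an adaptor that binds and damps the insulin and insulin-like growth factor receptors. Mest overlaps Copg2, and Igf2 overlaps Igf2os, on the opposite strand, and whether the counting used strand is not given in the sources used here, so reads from such pairs may not be told apart.

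The 250 bases before the start of Dlk1 and of the first listed Meg3 transcript are shown because these neighbours, read in the same direction, were carried by very different numbers of cells. They come from RefSeq (GRCm38.p6), which listed a start for 8 of the 10 members. Capitals mark CG dinucleotides, the kind of site at which such domains are methylated, and methylation was not measured here. They cover chr12:109452573-109452822 and chr12:109540746-109540995 and are read 5′ to 3′ on the plus strand.
Dlk1: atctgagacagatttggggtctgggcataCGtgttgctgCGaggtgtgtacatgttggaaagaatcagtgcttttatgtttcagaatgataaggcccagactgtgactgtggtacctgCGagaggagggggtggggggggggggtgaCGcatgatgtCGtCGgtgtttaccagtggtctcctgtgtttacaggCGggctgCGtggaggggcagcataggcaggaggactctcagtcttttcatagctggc
Meg3: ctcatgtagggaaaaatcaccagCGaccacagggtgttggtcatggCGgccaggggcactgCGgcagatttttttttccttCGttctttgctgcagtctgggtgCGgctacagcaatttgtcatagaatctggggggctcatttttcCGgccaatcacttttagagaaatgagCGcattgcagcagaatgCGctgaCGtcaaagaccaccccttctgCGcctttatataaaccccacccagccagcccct

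The Dlk1 stretch holds 8 CG dinucleotides and the Meg3 stretch 10, where the median over the promoters of 27025 genes was 6. Neither holds the letters GGGCGG on either strand, which 32.9% of promoters of that length hold.

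Cells of the 4 libraries were clustered together without the 10 members, so that a cell's class did not rest on them. After filtering, 4637 (C2D), 3308 (S2D), 2741 (C6W) and 2017 (S6W) cells remained, at a median of 14051, 8323.5, 10541 and 10341 UMIs. Pairs of libraries shared 3 to 22 cell barcodes. Classes were named from marker genes and are marker-like, not lineages. Fibroblast-like cells numbered 587 (C2D), 684 (S2D), 1110 (C6W) and 741 (S6W), and all 7 of their defining markers, among them Col1a1, Dcn and Pdgfra, were detected in every library.

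The UMIs of the members lay mainly in fibroblast-like cells. These made up 12.7, 20.7, 40.5 and 36.7% of the cells of C2D, S2D, C6W and S6W. They held 19.7, 21.8, 42.2 and 37.8% of all UMIs. A share of UMIs depends on how many cells of each class were captured. By level, Meg3 and Peg3 were higher in the few endocrine-like cells of C6W than in fibroblast-like cells. Summed over the libraries, fibroblast-like cells held 99.2% of the Dlk1 UMIs, 98.4% of Ndn, 98.3% of H19, 97.1% of Meg3, 96.9% of Mest and 95.6% of Cdkn1c. They held 87.2% of Plagl1, 86.6% of Peg3 and 85.3% of Grb10. These shares differed by library, as did the fibroblast share of cells: for Dlk1 it was 82.8% in C2D (48 of 58 UMIs) and 99.02 to 99.7% in the other libraries, for Peg3 92.4% in C2D and 68.6% in S2D, and for Grb10 89.4% in C2D and 74.6% in S2D. Igf2 gave 6 UMIs in all, 5 of them in fibroblast-like cells. B and T cells were taken as a background. Dlk1 and H19 had 0 UMIs in 111 (C2D), 950 (S2D), 380 (C6W) and 182 (S6W) such cells. A count of 0 allows up to 2.70, 0.316, 0.789 and 1.65% of them to carry a UMI, at a median of 5353, 6214.5, 8269 and 7089 UMIs per cell. Meg3 was found in 1.80, 0.947, 1.84 and 1.65% of the same cells, at 18.0, 2.87, 3.88 and 1.86 CPM, with 13 UMIs in 2 cells of C2D. Plagl1 stood there at 4.16, 3.13, 9.58 and 6.21 CPM, with 37 UMIs in 8 cells of C6W, and Peg3 had 10 UMIs in 1 cell of C2D (13.9 CPM) and at most 0.621 CPM elsewhere, so for these genes some B or T barcodes carried several UMIs. Cdkn1c stood at 1.17 to 2.48 CPM, and Grb10, Mest and Ndn at no more than 1.29 CPM.

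**Figure D1:**
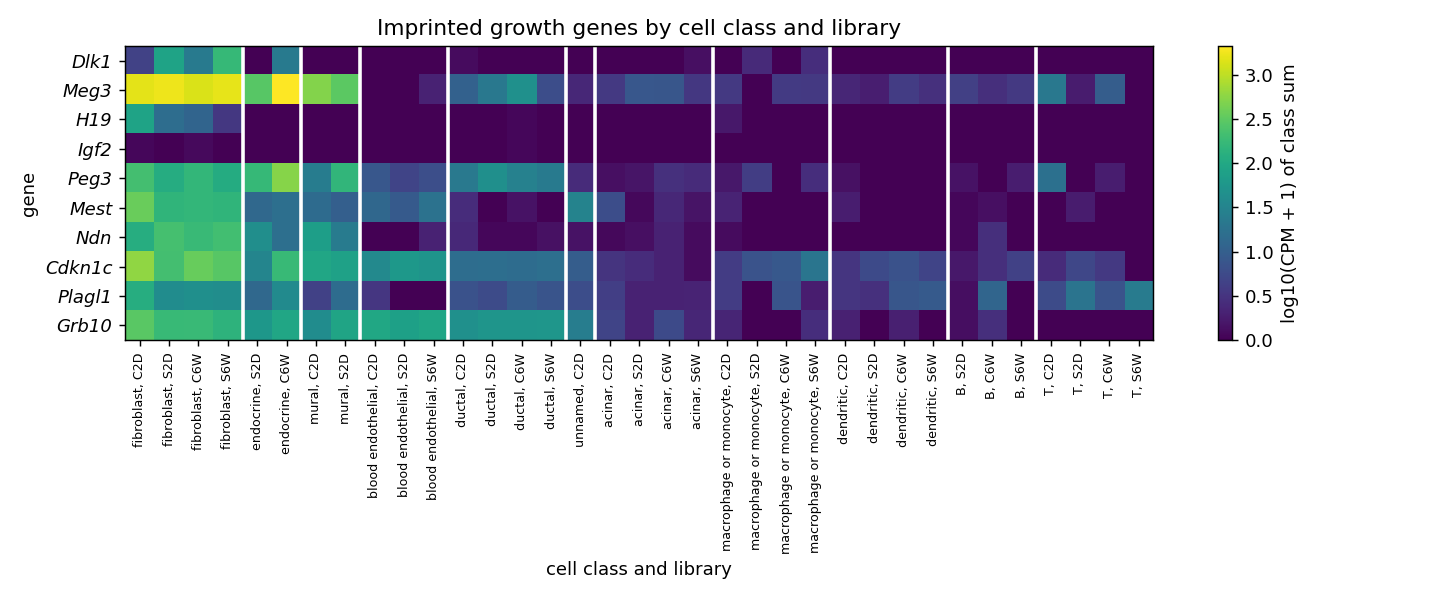
Level of each gene (rows) in the summed UMIs of chosen cell classes by library (columns with 20 or more cells), as log10 of counts-per-million (CPM) values plus 1. Natural killer, innate lymphoid, plasma, neutrophil, plasmacytoid dendritic and erythroid classes are not drawn. Among the columns drawn, each gene is highest in a fibroblast column, apart from Meg3 and Peg3, whose highest level is in the 35 endocrine-like cells of C6W (2112 and 524 CPM).

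Levels below are CPM, taken over all UMIs of the class. Ratios are log2 of caerulein over saline from class sums scaled by TMM, a scaling that sets most genes to no change, and a member was counted as higher or lower when it changed at least 2-fold with at least 100 UMIs over both libraries. Against plain CPM this scaling raised fibroblast ratios by 0.11 at 2 days and 0.12 at 6 weeks. In fibroblast-like cells at 2 days, 5 of the 9 counted members were higher in C2D than in S2D (H19, Plagl1, Cdkn1c, Mest and Peg3) and 1 was lower (Dlk1). The background over 9926 genes was 9.38% higher and 5.82% lower. At 6 weeks, 1 of 9 was higher (H19) and 1 lower (Dlk1), where 0.656% of 9903 genes were higher and 0.666% lower, and since the choice of members used this contrast nothing is read from that count. The median of the 9 members was 1.04 at 2 days and 0.23 at 6 weeks, and that of all genes was 0.04 and 0.01. Igf2 was too low to be counted in either comparison.

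**Figure D2:**
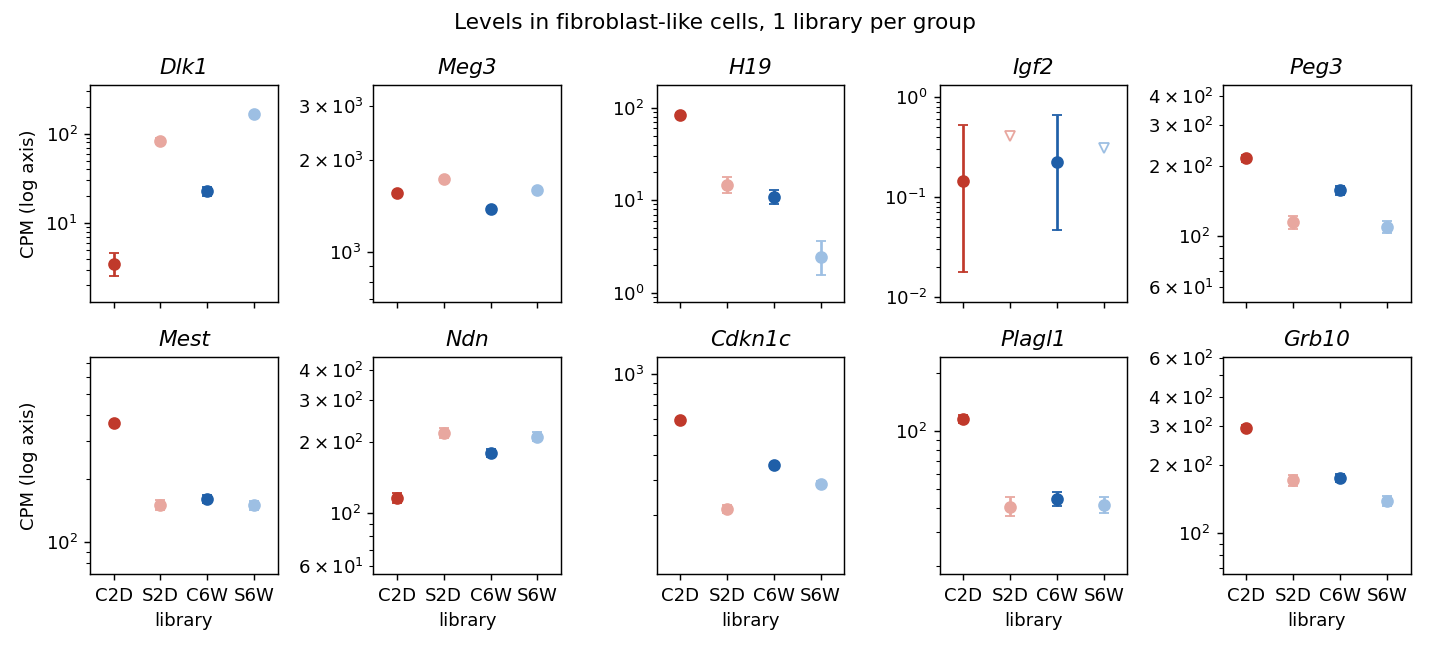
Level of each gene in fibroblast-like cells by library, in CPM on a log axis, with exact Poisson 95% intervals; open triangles mark the level of 3 UMIs where none was found. Dlk1 was lower in each caerulein library than in its saline library, at 3.50 and 22.8 CPM against 83.6 and 168 CPM, and H19 was higher, at 83.3 and 10.8 against 14.6 and 2.45 CPM.

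The acute library differed from its control in ways that stand beside every 2-day value. Of the C2D fibroblast-like cells, 93.4% lay in cluster 6, led by Mgp, Col3a1 and Col1a1, which held 1 S2D cell, whereas 72.1% of the S2D cells lay in cluster 17, led by Dcn, Gsn and Ccl11. Cluster and library can therefore not be told apart at 2 days. When clusters of mainly 1 library were left out, 39 C2D cells remained, in which 0 of 9 members were at least 2-fold higher and 3 were lower (Dlk1, Plagl1 and Ndn), where 3.91% of 7450 genes were higher and 11.8% lower. Those C2D cells numbered 21 in cluster 15, 11 in cluster 17 and 7 in cluster 13. The S2D cells numbered 29, 493 and 161 in the same clusters. Ratios outside cluster 6 therefore also compare different mixes of clusters. C2D fibroblasts were also sequenced more deeply, with a median of 22573 UMIs per cell against 10816.5 in S2D. RNA of other cells moved too: the 10 macrophage markers summed to 812 CPM in C2D fibroblasts (9 detected, Ly6c2 at 0) and 137 CPM in S2D fibroblasts (10 detected). In macrophages of C2D the higher members stood at 0.653 CPM (H19 and Peg3), 1.13 CPM (Mest), 2.85 CPM (Plagl1) and 2.91 CPM (Cdkn1c). The 10 acinar markers summed to 2269 CPM in C2D and 9548 CPM in S2D. At 6 weeks the macrophage markers summed to 145 CPM in C6W (10 detected) and 152 CPM in S6W (9 detected, Ccr2 at 0), and the acinar markers to 4144 and 5822 CPM (10 detected in each library). Their part in the ratios was not tested.

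Dlk1 stood at 3.50 CPM (2.58 to 4.64) in C2D fibroblasts, against 83.6 CPM (77.2 to 90.5) in S2D. At 6 weeks it stood at 22.8 CPM (20.3 to 25.5) in C6W, against 168 CPM (160 to 176) in S6W. Both caerulein libraries were below both saline libraries. The log2 ratio was -4.46 (-4.92 to -4.04) at 2 days, a 22.1-fold lower level, and -2.76 (-2.94 to -2.58) at 6 weeks, 6.76-fold lower. The saline libraries differed by almost the size counted here, with S6W over S2D at 0.996 (0.86 to 1.13), and C6W stood at -1.77 (-1.98 to -1.57) when set against S2D. Between the saline libraries 0 of 9 members were higher and 1, H19, was lower, where 0.634% of 9458 genes were higher and 0.508% lower. For C6W against S2D, 0 of 9 were higher and 1, Dlk1, was lower, where 0.647% of 9732 genes were higher and 0.873% lower. Both of these contrasts hold a 6-week library whose levels were used to choose the members, so nothing is read from these counts.

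Behind these sums, Dlk1 was a gene of few cells. It was found in 34 of 587 fibroblasts of C2D (5.79%), 65 of 684 of S2D (9.50%), 38 of 1110 of C6W (3.42%) and 112 of 741 of S6W (15.1%). With every cell thinned to 1000 UMIs the shares were 0.341, 3.22, 1.35 and 6.48%, with 1 shallower cell left out in each caerulein library. Strongly positive cells made most of the difference in UMIs: cells with 10 or more Dlk1 UMIs numbered 0 in C2D, 22 in S2D, 9 in C6W and 41 in S6W. They held 0, 85.1, 79.9 and 89.8% of the Dlk1 UMIs. The highest cell had 5 UMIs in C2D, against 47 in S2D, and 44 in C6W, against 137 in S6W.

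**Figure D3:**
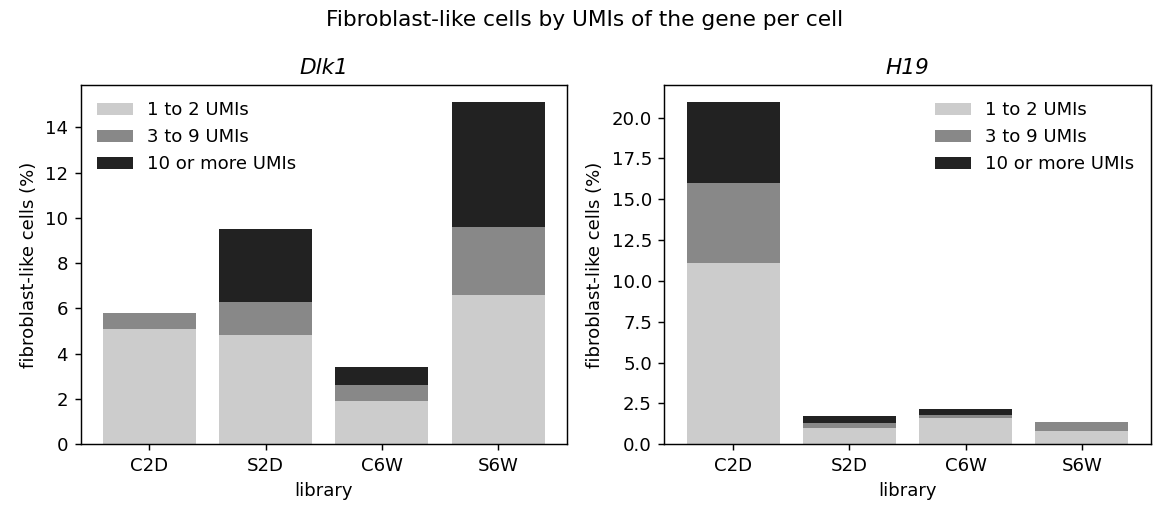
Share of fibroblast-like cells (%, bars from 0) with 1 to 2, 3 to 9 and 10 or more UMIs of Dlk1 (left) and H19 (right) in each library. The darkest part of the Dlk1 bars is absent in C2D and largest in S6W (41 of 741 cells), while H19 bars are high in C2D (123 of 587 cells) and below 3% elsewhere.

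Dlk1 was also uneven among the fibroblast clusters. In cluster 17 it stood at 33.0 CPM in C6W, 211 CPM in S6W and 118 CPM in S2D. In cluster 13, led by Dcn, Clec3b and Pi16, genes of adventitial fibroblasts, it had 0 UMIs in 180 cells of C6W, 3 UMIs in 86 cells of S6W and 3 UMIs in 161 cells of S2D. Cluster 15, led by Dcn, Col1a2 and Col1a1, had 0 UMIs of Dlk1 in C2D, C6W and S6W, and 37 UMIs in a single S2D cell. Within cluster 17 alone the 6-week log2 ratio of Dlk1 was -2.55 (-2.74 to -2.38). This cluster held 302 of the 303 Dlk1 UMIs of C6W fibroblasts and 1641 of the 1644 of S6W. Its ratio therefore rests on nearly the same counts as that of the whole class and is not a separate result.

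**Figure D4:**
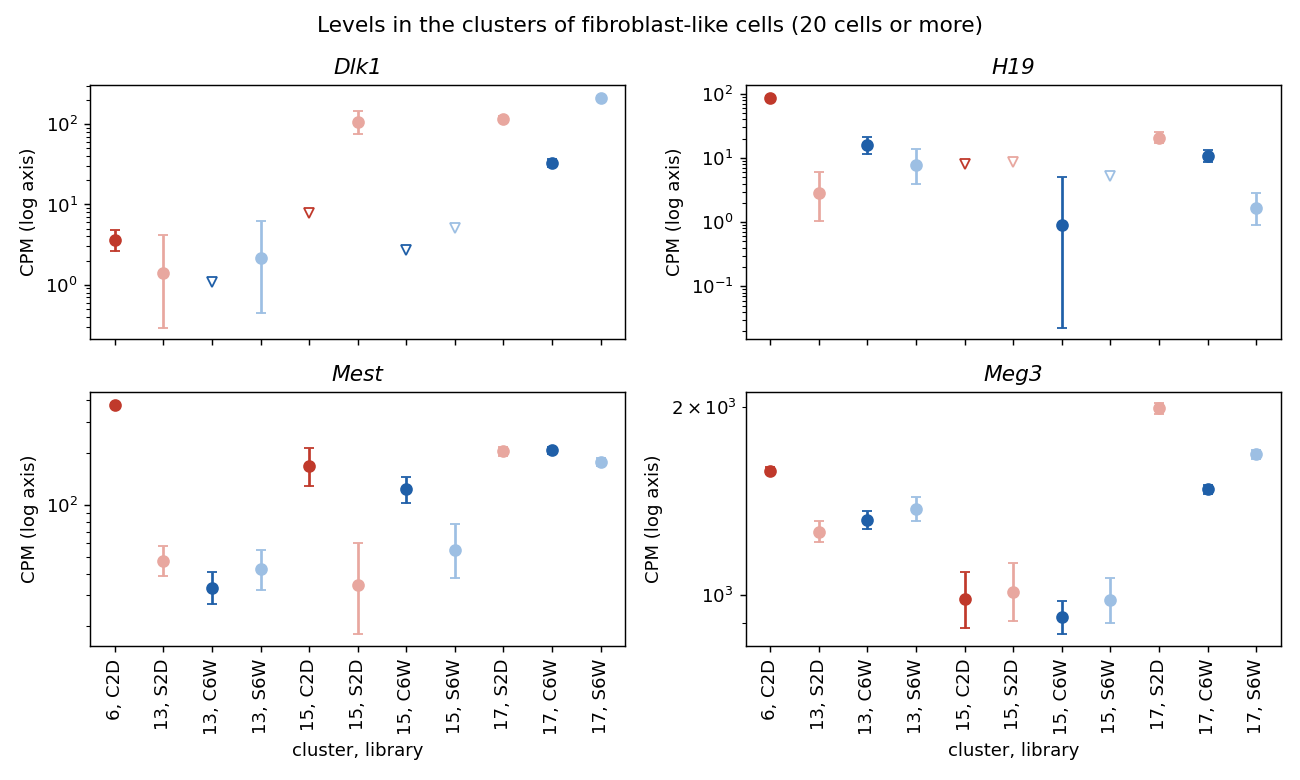
Levels of Dlk1, H19, Mest and Meg3 in the fibroblast clusters with 20 or more cells of a library, in CPM on a log axis, with exact Poisson 95% intervals and open triangles at the level of 3 UMIs where none was found. Dlk1 and Mest are lower in cluster 13 than in cluster 17 in each library shown, whereas Meg3 lies between 919 and 1987 CPM throughout.

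Cells of cluster 17 with a Dlk1 UMI were compared with cells without one, a comparison chosen after the values were seen. Their depth was alike, at a median of 12524 and 12519.5 UMIs in S6W, 10014 and 9866 in S2D, and 10806 and 11017.5 in C6W. Meg3 was higher in the Dlk1-positive cells of each library, by log2 0.53 (0.47 to 0.59) in S6W, 0.84 (0.77 to 0.91) in S2D and 0.73 (0.64 to 0.83) in C6W. Cdkn1c was higher by 1.10 (0.98 to 1.23) in S6W, 0.50 (0.28 to 0.72) in S2D and 0.28 (0.06 to 0.50) in C6W. Mest differed by 0.88 (0.71 to 1.05), 0.39 (0.14 to 0.63) and 0.53 (0.25 to 0.80) in the same libraries. Peg3 differed by 0.25 (0.01 to 0.49) in S6W, 0.40 (0.08 to 0.70) in S2D and 1.68 (1.45 to 1.90) in C6W. Plagl1 was at -0.55 (-1.03 to -0.11), 0.30 (-0.24 to 0.80) and 0.98 (0.47 to 1.46), so its direction was not shared by the libraries. Among 5431 genes compared in both saline libraries, 4 were at least 2-fold higher in Dlk1-positive cells of both: Apod, a lipocalin, Fbln7, a fibulin, Cldn15, a claudin, and Sox9, a transcription factor of cartilage and duct progenitors. In C6W their log2 values were 0.73, 0.54, 0.96 and -0.57. Another 16 were at least 2-fold lower in both saline libraries, with Pi16 lowest at -3.07 in S6W and -3.00 in S2D, and among them were Ly6c1, Has1, Cyp4b1 and C4b. The acinar genes Cel, Gp2 and Pnliprp2 were also among the 16, and in C6W stood at 1.23, 0.73 and 0.77.

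Meg3, on the same chromosome domain, was in nearly all fibroblasts. It stood at 1561 CPM (1540 to 1582) in C2D, against 1731 CPM (1701 to 1761) in S2D, and at 1388 CPM (1368 to 1408) in C6W, against 1591 CPM (1566 to 1616) in S6W. It was found in 97.8, 97.5, 96.6 and 98.4% of the cells. The log2 ratio was -0.04 (-0.07 to -0.0038) at 2 days and -0.07 (-0.10 to -0.04) at 6 weeks, so the levels of the 4 libraries lay within a narrow band while Dlk1 spread widely. At 6 weeks Meg3 was at 0.07 (-0.01 to 0.15) within cluster 13 and -0.06 (-0.10 to -0.03) within cluster 17. Of the other genes of the domain, Mirg, a maternally expressed microRNA host, stood at 15.5 CPM in C2D, against 20.9 CPM in S2D, and 13.98 CPM in C6W, against 18.5 CPM in S6W. Dio3, which inactivates thyroid hormone and is expressed mainly from the paternal copy, stood at 54.6 CPM in C2D, against 9.32 CPM in S2D, and 12.4 CPM in C6W, against 14.5 CPM in S6W. Rtl1 had 1 UMI in C6W and 0 in the other 3 libraries. Dlk1 and Dio3, at the ends of the domain, thus differed in opposite directions at 2 days, with Dio3 at 2.66 and Dlk1 at -4.46.

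H19 stood at 83.3 CPM (78.5 to 88.2) in C2D fibroblasts, against 14.6 CPM (11.97 to 17.6) in S2D. At 6 weeks it stood at 10.8 CPM (9.13 to 12.7) in C6W, against 2.45 CPM (1.57 to 3.64) in S6W. The log2 ratio was 2.63 (2.34 to 2.92) at 2 days and 2.27 (1.64 to 2.96) at 6 weeks. The C6W level lay below that of S2D, at -0.33 (-0.70 to 0.05), so the direction at 6 weeks turned with the saline library used, and S6W over S2D was -2.58 (-3.29 to -1.93). In C2D 123 of 587 fibroblasts carried H19 (21.0%), against 12 of 684 in S2D (1.75%). In C6W 24 of 1110 carried it (2.16%), against 10 of 741 in S6W (1.35%). Thinned to 1000 UMIs these shares were 5.12, 0.585, 0.541 and 0%. Single cells weighed heavily outside C2D: 3 cells held 95 of the 108 UMIs of S2D and 4 cells held 113 of the 144 UMIs of C6W. Without the cell richest in H19 in each library, the 2-day ratio was 3.56 and the 6-week ratio 1.77. Within the Pi16 cluster 13 the 6-week ratio was 1.17 (0.19 to 2.27) and within cluster 17 it was 2.82 (1.98 to 3.78).

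In cluster 6 of C2D, 57 cells with 3 or more H19 UMIs were set against 427 cells without any, again after the values were seen. Cdkn1c, which lies in the neighbouring imprinted domain of chromosome 7, was higher by 1.57 (1.50 to 1.64), at 1531 CPM against 515 CPM. Peg3 was higher by 0.55 (0.40 to 0.70), Plagl1 by 0.59 (0.38 to 0.80) and Grb10 by 0.40 (0.26 to 0.53), while Ndn was at -0.06 (-0.31 to 0.17) and Mest at 0.10 (-0.03 to 0.22). Of 8013 genes compared, 26 were at least 2-fold higher and 120 lower in these cells. Wnt2, a secreted Wnt ligand, was at 2.05, from 47 UMIs against 80. Lipg, a lipase, Mmp3, a matrix protease, and Gdf15, a stress cytokine, were at -3.87, -3.43 and -2.90. They rested on only 1, 7 and 5 UMIs in the H19 cells. H2-Eb1 (154 against 59.1 CPM) and Spp1 (183 against 80.1 CPM), leading genes of dendritic-like and duct-like clusters, were also higher. The part of other cells' RNA in these values was not tested. Median depth was 24506 and 22660 UMIs.

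Igf2, the neighbour of H19, was close to undetected. Fibroblasts held 2 UMIs in C2D, against 0 in S2D, and 3 UMIs in C6W, against 0 in S6W. A count of 0 allows up to 3 UMIs, or 0.405 CPM in S2D and 0.306 CPM in S6W, and no fold is given. Other genes that act on insulin-like growth factor signalling were abundant in the same cells. Of 22 genes of that axis, 17 were counted at 2 days, with 1 higher and 4 lower and a median of -0.54. Over all genes, 9.38% were higher and 5.82% lower at 2 days, and 0.656% and 0.666% at 6 weeks. Igf1, the hormone-like growth factor, was at 2.13, and the binding proteins Igfbp5 and Igfbp6 were at -2.96 and -1.21, with Igf2bp3, an RNA-binding protein, at -2.11. At 6 weeks 0 of 17 were higher and 2 lower, Igfbp3, the main serum binding protein, at -1.29 and Stc2, a glycoprotein that blocks Pappa, at -1.24. Grb10, which damps the receptors of this pathway, stood at 293 CPM (284 to 302) in C2D, against 172 CPM (163 to 182) in S2D, and at 176 CPM (169 to 183) in C6W, against 139 CPM (132 to 147) in S6W. Its log2 ratios, 0.88 (0.79 to 0.98) and 0.46 (0.36 to 0.56), were under the size counted as a change.

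Cdkn1c stood at 596 CPM (583 to 609) in C2D fibroblasts, against 215 CPM (205 to 226) in S2D, and at 354 CPM (344 to 364) in C6W, against 286 CPM (275 to 297) in S6W. The highest library was C2D and the lowest S2D. The log2 ratio was 1.58 (1.51 to 1.66) at 2 days and 0.43 (0.36 to 0.50) at 6 weeks, and -0.65 at 2 days in the 39 cells outside cluster 6. Within clusters 13 and 17 the 6-week ratios were 0.46 (0.27 to 0.66) and 0.42 (0.34 to 0.49). Cluster 15, with under 50 cells in S6W and so no ratio, held Cdkn1c at 365 CPM (331 to 403) in 90 cells of C6W, against 101 CPM (77.3 to 131) in 40 cells of S6W. Of 14 other inhibitors, cyclins and kinases of the same step of the cell cycle, 12 were counted at 2 days, 4 of them higher and 2 lower, with a median of 0.25. The shares over all genes were 9.38% higher and 5.82% lower at 2 days, and 0.656% and 0.666% at 6 weeks. Cdkn2a and Cdkn2b, inhibitors of Cdk4 and Cdk6, were at 4.28 and 1.95, and the D cyclins Ccnd1 and Ccnd2 at -2.72 and -2.41. At 6 weeks 0 of 11 were higher and 2 lower, and these were the same D cyclins, Ccnd1 at -2.38 and Ccnd2 at -1.07.

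Plagl1, which in mice activates other imprinted genes, stood at 116 CPM (110 to 122) in C2D, against 40.5 CPM (36.1 to 45.4) in S2D, and at 44.3 CPM (40.8 to 48.0) in C6W, against 41.2 CPM (37.3 to 45.5) in S6W. C2D stood apart from the other 3 libraries, whose intervals overlapped. Its log2 ratio was 1.63 (1.45 to 1.81) at 2 days, but -1.42 in the cells outside cluster 6, and 0.23 (0.04 to 0.41) at 6 weeks. Plagl1 was found in 58.6% of C2D fibroblasts, against 27.3% of S2D, and in 27.4% of C6W, against 26.3% of S6W.

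Peg3, a zinc finger protein of the paternal copy, stood at 216 CPM (208 to 224) in C2D, against 114 CPM (106 to 122) in S2D, and at 157 CPM (149.98 to 164) in C6W, against 109 CPM (103 to 116) in S6W. Both caerulein libraries were above both saline libraries. On the log2 scale the ratio was 1.04 (0.93 to 1.15) at 2 days, which was 0.92 under plain CPM and 0.28 in the cells outside cluster 6, and 0.64 (0.54 to 0.75) at 6 weeks. The 6-week ratio was 0.67 (0.55 to 0.80) within cluster 17 and 0.05 (-0.34 to 0.44) within cluster 13. In C6W, S6W and S2D the highest Peg3 level was in cluster 15, which had under 50 cells in S6W and so no ratio. Peg3 stood there at 372 CPM (337 to 409) in C6W, 234 CPM (196 to 277) in S6W and 205 CPM in S2D. C6W was thus above S6W in cluster 15 too.

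Mest stood at 365 CPM (355 to 376) in C2D, against 150.0 CPM (141 to 159) in S2D, and at 160 CPM (153 to 167) in C6W, against 149.5 CPM (142 to 157) in S6W. Its log2 ratio was 1.40 (1.30 to 1.49) at 2 days and 0.22 (0.12 to 0.32) at 6 weeks, with -0.31 at 2 days in the cells outside cluster 6. Within cluster 13 Mest stood at 93.7 CPM in 7 C2D cells, against 47.5 CPM in S2D. Cluster 15 held it at 167 CPM in 21 C2D cells, against 34.6 CPM in S2D. In cluster 17 it was lower, at 10.3 CPM in 11 C2D cells, against 203 CPM in S2D. In C2D 180 of 587 fibroblasts held 10 or more Mest UMIs, against 16 of 684 in S2D. Like Dlk1, Mest was higher in cluster 17 than in cluster 13, at 206 CPM in cluster 17 and 33.2 CPM in cluster 13 of C6W, 177 and 42.5 CPM in S6W, and 203 and 47.5 CPM in S2D. Unlike Dlk1, it was highest in cluster 6 of C2D, at 375 CPM, where Dlk1 stood at 3.58 CPM, and it stood at 167 CPM (C2D), 123 CPM (C6W) and 55.0 CPM (S6W) in cluster 15, where Dlk1 had 0 UMIs.

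Ndn, like Dlk1 and Meg3, had a lower level in each caerulein library than in its saline library, at 116 CPM (110 to 122) in C2D, against 217 CPM (206 to 228) in S2D, and 179 CPM (172 to 187) in C6W, against 210 CPM (201 to 219) in S6W. The log2 ratio was -0.79 (-0.89 to -0.69) at 2 days and -0.10 (-0.19 to -0.01) at 6 weeks. The 6-week direction differed by cluster, at 0.24 (0.04 to 0.44) in cluster 13 and -0.22 (-0.32 to -0.12) in cluster 17. Ndn was spread over most cells, with 85.7, 81.4, 79.7 and 85.0% of C2D, S2D, C6W and S6W fibroblasts carrying it.

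**Figure D5:**
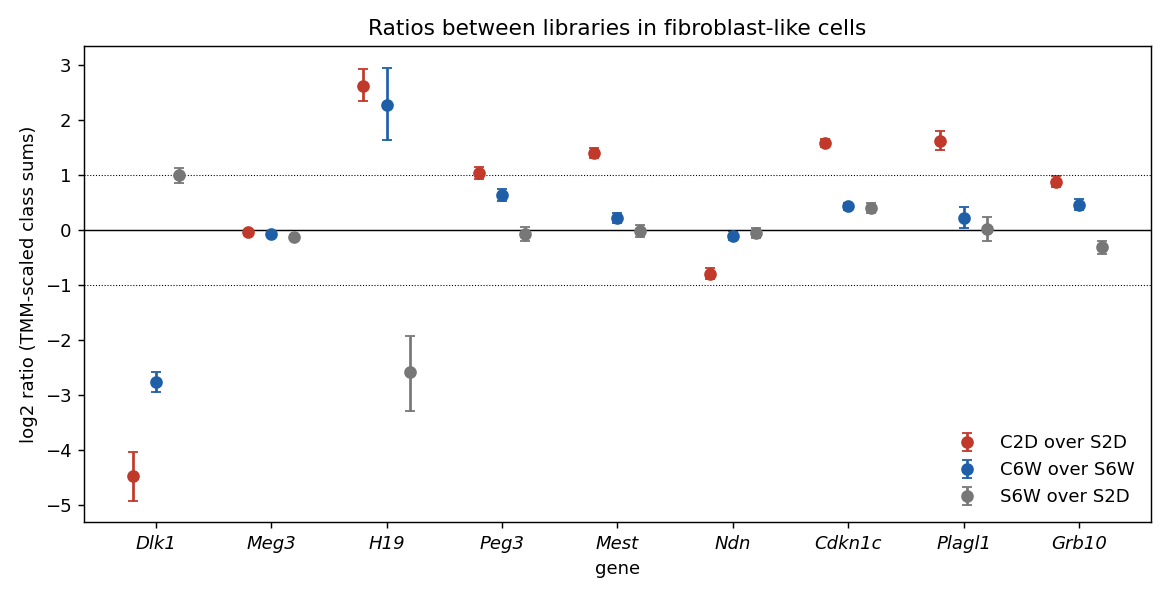
Log2 ratios in fibroblast-like cells with exact conditional binomial 95% intervals, for C2D over S2D, C6W over S6W and S6W over S2D; dotted lines mark 2-fold. Dlk1 lies below -2.5 and H19 above 2 in both caerulein comparisons, the saline libraries differ by 0.996 and -2.58 in the same genes, and the other 7 genes stay within 2-fold at 6 weeks.

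Among 40 other imprinted genes, 38 were in the matrices and 25 were counted at 2 days, with 5 higher, 1 lower and a median of -0.22. Beside this list and the Notch list below, 9.38% of all genes were higher and 5.82% lower at 2 days. At 6 weeks the shares of all genes were 0.656% and 0.666%. Dio3 was at 2.66, Zim1, a zinc finger gene beside Peg3, at 2.14, Nap1l5 at 1.77 and Klf14 at 1.65. At 6 weeks 1 of 23 was higher, Zim1 at 1.36, and 0 were lower, with a median of -0.04. Zim1 thus had the direction of its neighbour Peg3 at both times, at 51.1 CPM in C2D against 12.6 CPM in S2D, and 27.4 CPM in C6W against 11.6 CPM in S6W. Of 13 Notch receptors, ligands and targets, the family to which the Dlk1 protein is related, 6 were counted. At 2 days 1 was higher, Heyl at 1.07, and at 6 weeks 1 was lower, Notch3 at -1.07, a receptor of mural cells. The 8 mural markers summed to 188 CPM in C6W fibroblasts and 240 CPM in S6W fibroblasts. Notch3 is itself among these markers, so the sums are not separate from its ratio. The part of mural cell RNA in that ratio was not tested.

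Activated and resting fibroblast genes moved beside the members. Both lists were chosen with earlier results of these data known, so their counts are a description only. Over all genes, 9.38% were higher and 5.82% lower at 2 days, and 0.656% and 0.666% at 6 weeks. Of 10 activation genes, 9 were higher in C2D than in S2D and 0 lower, with a median of 4.71, and 4 of 8 counted were higher in C6W than in S6W, with a median of 0.80. At 6 weeks these were Thbs4 at 2.40, Tnc at 1.62, Postn at 1.56 and Col8a1 at 1.01, all genes of matrix proteins. Of 10 genes of quiescent and adventitial fibroblasts, 8 were lower in C2D, with a median of -2.17, and 1 was lower in C6W, Apoe at -1.17. At 6 weeks the fibroblast-like cells of the 2 libraries shared their clusters, with 74.3% of C6W and 82.7% of S6W in cluster 17.

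Over the 32 class-by-library sums of named classes with at least 50 cells, the genes whose log2 levels were most like each member's were found by Pearson's r among 13039 genes. These sums share libraries, and fibroblasts dominate them, so r is a description. The nearest genes to Dlk1 were Nrk (r = 0.96), Kcng4 and Vit, and to H19 AW551984 (0.99), Slc36a2 and Tnc. Nearest to Meg3 were Gpc6 (0.98), St6galnac5 and Arhgef25, with Ndn at rank 5 (0.97). Nearest to Mest were Aoc3 (0.98), Lox and Aebp1, to Ndn Vgll3 (0.99), Zfhx4 and Lpar1, and to Grb10 Tgfb1i1 (0.98), Rbfox2 and Rhoj. Nearest to Peg3 were Cacna2d1 (0.97), Sned1 and Rai2, to Cdkn1c Ptgfrn (0.95), Scarf2 and Numbl, and to Plagl1 Sema6c (0.90), Zfp575 and Ephb2.

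Duct-like cells, of which there were 179 in C2D, 733 in S2D, 542 in C6W and 224 in S6W, held 4 members at levels that could be counted. At 6 weeks 1 of the 4 was higher, Meg3, and 0 were lower, where 0.288% of 8323 genes were higher and 0.0841% lower, a contrast the choice of members used. Meg3 stood at 9.85 CPM (7.10 to 13.3) in C2D, against 20.3 CPM (17.2 to 23.9) in S2D, and at 45.4 CPM (40.3 to 50.9) in C6W, against 5.19 CPM (2.76 to 8.87) in S6W. The C2D level lay below that of B and T cells of C2D (18.0 CPM), so it was not shown to be above background. That B and T cell level came from 13 UMIs in 2 of 111 cells, and in the other libraries it was 1.86 to 3.88 CPM. The 6-week log2 ratio was 3.14 (2.34 to 4.06), from 291 UMIs in 44 of 542 cells of C6W and 13 UMIs in 10 of 224 cells of S6W. The 10 richest C6W cells held 215 of the 291 UMIs. Against S2D the ratio of C6W was 1.17, with 1 of 4 members higher and 0 lower (0.371% and 0.318% of 9436 genes). Between the saline libraries Meg3 was at -1.96 in S6W over S2D, with 0 of 4 higher and 1 lower (0.267% and 0.581% of 8609 genes). Each of these contrasts also holds a 6-week library used in the choice of members, so nothing is read from the counts. In S2D 1 cell held 100 of the 144 UMIs, and without the richest cell of each library the 2-day ratio, -0.95 (-1.48 to -0.44), became 0.33. The 20 C6W duct-like cells with 3 or more Meg3 UMIs had 153 CPM of the 7 fibroblast markers (7 detected), against 35.7 CPM (6 detected) in the 498 cells without Meg3, and their 12 endocrine markers summed to 11.2 CPM (3 detected, Chga at 0) against 8.96 CPM (9 detected). The part of this RNA in the Meg3 level was not tested.

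Of the other 3 counted members, Grb10 and Cdkn1c were steadier in duct-like cells. Grb10 stood at 45.0 CPM in C2D, against 52.7 CPM in S2D, and 52.7 CPM in C6W, against 54.3 CPM in S6W. Cdkn1c stood at 14.3 CPM in C2D, against 14.97 CPM in S2D, and 14.0 CPM in C6W, against 15.2 CPM in S6W. For both, each ratio's interval held 0. Peg3 stood at 21.1 CPM in C2D, against 44.6 CPM in S2D, a log2 ratio of -0.98 (-1.34 to -0.64), and at 28.1 CPM in C6W, against 22.4 CPM in S6W, at 0.34 (-0.10 to 0.80). At 2 days 0 of the 4 were counted in either direction, where 5.04% of 9093 genes were higher and 5.47% lower. Dlk1, H19, Igf2, Mest and Ndn had at most 7 UMIs in any duct-like library, and Plagl1 stood at 4.80 to 8.26 CPM, a range that overlaps its 3.13 to 9.58 CPM in B and T cells, so it is not read as expression.

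In other classes the members were scarce or rested on few cells. In a cluster named endocrine-like, Meg3 stood at 2112 CPM (1871 to 2376) in 35 cells of C6W and 292 CPM (215 to 389) in 70 cells of S2D, and Peg3 at 524 and 168 CPM. These cells were shallow, at a median of 2016 and 1740.5 UMIs, their 278 and 47 Meg3 UMIs came from 9 and 3 cells, and their 10 acinar markers summed to 19117 and 58624 CPM. With the members kept in the clustering, an endocrine-like cluster of 19 cells was left, apart from a shallow duct-like cluster of 107 cells, so this class is a mixed one. Blood endothelial cells carried Grb10 at 95.6 CPM in C2D, 76.8 CPM in S2D and 88.6 CPM in S6W, and Cdkn1c at 35.4, 57.6 and 52.3 CPM, in 105, 48 and 141 cells. Mural cells carried Meg3 at 511 CPM in 24 cells of C2D and 307 CPM in 22 cells of S2D. Acinar-like cells held Meg3 at 2.46 to 6.91 CPM, near its level in B and T cells, and Dlk1 at no more than 0.388 CPM. An unnamed cluster of 322 C2D cells with both digestive and keratin genes among its leading genes held Mest at 29.4 CPM (24.6 to 35.0) and Grb10 at 24.7 CPM (20.2 to 29.8), against 5.12 and 3.84 CPM in acinar-like cells of the same library.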

How the data were processed

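The deposited matrices held raw counts, whole UMI numbers per gene and barcode. The submitters' processing notes name FastQC, the mouse build mm10 and Cell Ranger 3.0.2. The authors' files hold called cell barcodes (5433, 5316, 4195 and 2623 in C2D, S2D, C6W and S6W, with 71547194, 36914373, 33788935 and 29145886 UMIs). Barcodes under 500 UMIs or 200 genes, or over 20% mitochondrial UMIs, were left out. Scrublet (scanpy 1.11.5) removed 19, 38, 32 and 15 doublets, only 0.408% in C2D, so an expected rate was tried as an alternative. Clustering used 2000 variable genes without the members, 40 components, 15 neighbours and Leiden at resolution 1, with no integration. To be named, a cluster had to raise its markers by a mean log2 fold of 1, with 3 of them in 10% of cells, lead the next class by 0.5, and not be led by another class's genes; the condition on digestive genes was added after seeing the clusters. Levels carry exact Poisson intervals, shares Clopper-Pearson intervals and ratios (edgeR 4.0.16 TMM, R 4.3.3) conditional binomial intervals, for genes with at least 20 UMIs and classes with 50 cells per library. With 1 library per group no p-value was computed. Free RNA was not subtracted.

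Members, lists and contrasts were chosen with earlier results of these data known. Named genes were the members, in each list up to 4 genes by size of ratio, and the 3 genes most like each member (r of log2 of CPM plus 10). Genes of Dlk1-positive and H19-positive cells were chosen after their values were seen. On simulated data of 9931 fibroblast genes at 2 days, a log2 change of 1 was recovered at a median of 1.00 and -2 at -1.97, and 1 of 9731 unchanged genes passed 2-fold. The simulated class sums were independent Poisson counts, scaled by plain totals without TMM. They held no uneven spread of UMIs over cells and no variation between libraries. The simulation therefore covers counting error only and does not give the rate of false 2-fold changes in the real data.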

Additional observations from a re-analysis of the deposited data

How the results depend on the processing

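No paired analysis was possible because each group had 1 library, so no 2 groups share more than 1 replicate number. The alternatives were plain CPM, DESeq2 1.42.0 size factors, totals without digestive genes, cells thinned to 1000 UMIs, a minimum of 1000 UMIs per cell, free RNA subtracted, doublets kept or removed by expected rate, members kept in the clustering, Leiden resolution 2, clusters of mainly 1 library left out, S2D as the control of C6W, other UMI minima and, chosen after seeing the data, the richest cell of each library left out. Of 325 values under them, 260 stayed within the 95% interval of the reported value, 61 left it and 4 were ratios past 2-fold that changed sign. Of 110 values for the 9 ratios past 2-fold, 101 stayed past it. The 4 that changed sign were Mest (-0.31), Cdkn1c (-0.65) and Plagl1 (-1.42) at 2 days in fibroblasts without clusters of mainly 1 library, which leaves 39 C2D cells, and H19 at 6 weeks against S2D (-0.33). The cluster mix of those 39 cells was unlike that of S2D. The 5 higher members at 2 days became 2 after thinning, where the ratios of H19 (3.16), Mest (1.65), Cdkn1c (1.34) and Plagl1 (1.11) stayed past 2-fold but fewer members kept 100 UMIs. Without those clusters the 5 became 0 and the 1 lower became 3. The 1 higher at 6 weeks became 0 after thinning, against S2D and with a minimum of 400 UMIs, since H19 then had too few UMIs or changed sign. In duct-like cells the 0 lower at 2 days became 2 under plain CPM, totals without digestive genes and free RNA subtraction, and 1 without the richest cell, and the 1 higher at 6 weeks became 0 after thinning and at 400 UMIs, where too few UMIs remain. Other causes were not tested. Ratios under 2-fold also changed sign in places, such as Grb10 at 2 days in fibroblasts without those clusters (-0.14). Dlk1 in fibroblasts ranged over -5.64 to -4.40 at 2 days and -2.89 to -1.77 at 6 weeks. Depth limits Igf2 everywhere and Dlk1 and H19 outside fibroblasts.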
